A study of Homo sapiens with 8 samples.

Results

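The pro-apoptotic BCL2 family was followed through a pulse and chase of 4-thiouridine (4sU) in THP-1 cells. Its members here are 9 genes, 7 encoding BH3-only proteins (BIK, BMF, BBC3, PMAIP1, BCL2L11, BID and BAD) and 2 encoding the effectors BAX and BAK1. They were taken by gene name as members of the family, with no threshold on a measured value. Each was represented by the 3′ UTR segment with the most reads over the 8 libraries, and all 9 were found among 15380 genes with a read.

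THP-1 is a line grown from acute monocytic leukaemia. In the 7 chase libraries, cells had taken up 30 µM 4sU for 12 h, with the medium exchanged every 3 h, had been washed, and were harvested after 0, 20 and 40 min and 1, 2, 8 and 12 h in medium with 3 mM uridine. The remaining library came from cells that never received 4sU. Every condition was a single library of the same line, with no other treatment named, so no test between conditions was possible. Nothing in the labels says that the times came from separate cultures, and p-values measure only scatter about a line in time. The assay, SLAM-seq, alkylates the 4sU in RNA so that labelled uridines are read as T-to-C changes. A read with such changes is called labelled here, and unlabelled reads come from RNA made before the pulse, after the wash, or without enough conversions.

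BCL2 family proteins decide whether the outer mitochondrial membrane is permeabilised. BAX and BAK form the pores that release cytochrome c, the BH3-only proteins activate them or neutralise their inhibitors, and anti-apoptotic relatives such as MCL1 and BCL2 hold both in check. Several BH3-only genes are switched on by stress signals, among them PMAIP1 (NOXA) and BBC3 (PUMA).

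Gene counts summed to between 8301033 reads at 12 h and 11224018 at 8 h in the chase libraries, and to 2916043 without 4sU. Of the markers chosen for the labelled cell type, all 11 monocytic and myeloid granule genes had reads. They summed to between 1458 and 2477 CPM (counts scaled to library size by edgeR's TMM factors) in chase libraries and to 790.1 CPM without 4sU. ELANE alone gave 636.8 to 1262 CPM of that in chase libraries and 375.6 CPM without 4sU, while MPO reached at most 2.84 CPM. The sums reached at most 7.93 CPM for lymphoid, 1.35 CPM for erythroid and 4.70 CPM for epithelial and fibroblast markers, and CD3E and HBB had no read.

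AU-rich elements built on the pentamer ATTTA are known to recruit decay factors, so the annotated ends of the transcripts are shown first. Except for BIK and PMAIP1, the counted segments carry earlier versions of these transcripts, so the ends shown may differ from those counted. The pentamer was searched on the sense strand, overlaps included, in the last 500 bases of each transcript (GENCODE 29, GRCh38). It was present in BIK, BMF, PMAIP1 and BCL2L11 and in none of the other 5 members, against 58.07% of 9352 genes tested for label decline. PMAIP1 held 5 copies there and the other matching members 1 each. Sites of up to 30 bases that do not overlap are given with each pentamer in capitals, 2 copies falling in the first PMAIP1 site, 1 of the 5 PMAIP1 copies not shown, and the BMF site ending with its transcript.
PMAIP1, chr18:59903963-59903992, plus strand: gaataattttATTTAttttgcctATTTAta
PMAIP1, chr18:59904154-59904183, plus strand: aagattgtttATTTAgtggtagagagtttt
PMAIP1, chr18:59904211-59904240, plus strand: accatctggtATTTAtggtctaatttgtat
BIK, chr22:43129405-43129434, plus strand: gcctttttatATTTAaaccccgagatagtg
BCL2L11, chr2:111167962-111167991, plus strand: atccctgctgATTTAgcctggtgcctgtgt
BMF, chr15:40087890-40087911, minus strand: taataaaatcATTTAaagcaaa

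Over whole 3′ UTRs, the annotated lengths were 4216 bases for BCL2L11 with 8 pentamers, 3897 for BMF with 5, 1553 for PMAIP1 with 5, 1442 for BID with 2 and 407 for BIK with 1. BAK1 (1450 bases), BBC3 (877), BAX (701) and BAD (375) had none. Genes with the pentamer in the last 500 bases had a median half-life of 2.63 h and genes without it 2.92 h, given as a description across genes. The longer ATTTATTTA was in 2.04% of transcript ends and in no member. The Pumilio-type motif TGTANATA was in BBC3 and BCL2L11 and in 13.32% of ends. A match or its absence says only what letters stand in these windows. Only T positions can carry a conversion, and T made up from 19.6% (BAD) to 42.0% (PMAIP1) of the last 250 bases of the members, against a median of 31.6% in genes tested.

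The chase asks how long each mRNA keeps the label it took up in the pulse. The labelled share fell fastest in BMF, BCL2L11, BBC3 and PMAIP1 and slowest in BAD, BAX and BID. BH3-only genes, which make up 7 of the 9 members, stood in both groups. BIK and BAK1 lay between. All 9 members declined over the chase by edgeR's quasi-likelihood test of labelled reads against hours, offset by the gene's own total. Their Benjamini-Hochberg adjusted p, over all genes, ran from 1.48e-13 for BBC3 to 0.000197 for BAD. The label fell in 95.3% of 9402 genes tested (0.0213% rose), so the call itself says nothing particular about them. A half-life here is that of the labelled share of a gene's own reads. New unlabelled RNA lowers that share just as loss of old RNA does.

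BMF encodes a BH3-only protein that binds dynein light chain in the cytoskeleton until it is released. In the 0, 20 and 40 min libraries 58 of 106, 60 of 130 and 66 of 141 of its reads were labelled (54.7, 46.2 and 46.8%). The 1 and 2 h libraries had 58 of 144 and 25 of 107 (40.3 and 23.4%), and the 8 and 12 h libraries 1 of 220 and 1 of 212 (0.455 and 0.472%). The share was already lower at 2 h, its interval (15.7 to 32.5%, exact binomial) lying below that of 0 h (44.8 to 64.4%). The half-life was 1.51 ± 0.17 h (SE of the fit), with 2.82% of resolved genes faster, and the slope of the log share was -0.68 per hour (log2, adjusted p = 4.88e-12, edgeR).

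BCL2L11 encodes BIM, which binds every anti-apoptotic relative and can activate BAX directly. Its labelled share was 58.2, 62.8 and 57.1% in the 0, 20 and 40 min libraries, 50.2 and 33.6% in those of 1 and 2 h, and 1.33 and 0.282% in those of 8 and 12 h, from 235 to 450 reads each. Intervals of the first 3 libraries overlapped, and that of 2 h (27.6 to 40.05%) lay below those of all earlier libraries. The half-life was 1.74 ± 0.24 h (adjusted p = 4.95e-13, edgeR).

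BBC3 encodes PUMA, a strong activator of apoptosis after DNA damage. Labelled reads were 445 of 686, 468 of 744 and 477 of 753 in the 0, 20 and 40 min libraries (64.9, 62.9 and 63.3%) and 432 of 693 after 1 h (62.3%). They were 303 of 818 after 2 h (37.0%), and 29 of 1469 and 2 of 738 after 8 and 12 h (1.97 and 0.271%). The share was level through the first hour and lower by 2 h, a shape that a single exponential from 0 h does not follow. Scatter about the fit was 18.7 times the binomial variance. The fitted half-life was 1.87 ± 0.29 h over the whole chase and 1.42 h over 1 to 12 h alone (adjusted p = 1.48e-13 for the decline, edgeR). Neither trait was particular to BBC3. The same scatter was 12.7 for BID, 5.04 for PMAIP1, 5.03 for BAK1 and 4.27 for BCL2L11. It was 4.01 for BAD, 3.82 for BIK, 1.37 for BAX and 0.994 for BMF. Over all genes together the labelled share was 30.6, 30.1 and 30.7% in the 0, 20 and 40 min libraries, then 30.2 and 27.1% after 1 and 2 h.

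PMAIP1 encodes NOXA, which neutralises MCL1. Labelled reads were 492 of 780, 510 of 933 and 692 of 1391 in the 0, 20 and 40 min libraries (63.1, 54.7 and 49.7%), and 515 of 1170 and 277 of 738 after 1 and 2 h (44.0 and 37.5%). After 8 and 12 h 8 of 605 and 2 of 282 remained (1.32 and 0.709%). Unlike BBC3, the share was lower in each library than in the one before it. The half-life was 1.93 ± 0.22 h (adjusted p = 1.94e-12, edgeR) and 1.54 h with labelled reads scaled to library size. On that scale labelled PMAIP1 was 58.9, 60.2 and 75.6 CPM in the 0, 20 and 40 min libraries and 58.8 and 30.8 CPM after 1 and 2 h, so it was highest 40 min into the chase.

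BIK, an endoplasmic reticulum BH3-only protein, had few reads in the chase, from 72 at 1 h to 150 at 8 h. Its labelled share was 39.5, 33.3 and 53.8% in the 0, 20 and 40 min libraries, 34.7 and 37.6% after 1 and 2 h, and 3.33 and 0.806% after 8 and 12 h. The 5 libraries up to 2 h had overlapping intervals, and the half-life of 2.45 ± 0.62 h has a wide 95% interval (1.497 to 4.02 h).

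BID, which caspase-8 cleaves to link death receptors to mitochondria, held its label through 2 h. The share was 32.0, 34.0 and 34.9% in the 0, 20 and 40 min libraries, 30.4 and 34.0% after 1 and 2 h, and 10.3 and 2.56% after 8 and 12 h, from 938 to 1347 reads per library. At 8 h it kept 30.5% of its share in the 0 to 40 min libraries, against 14.1% for the median gene tested, and the half-life was 4.17 ± 0.76 h.

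BAD, a BH3-only protein kept inactive by phosphorylation and 14-3-3 binding, had the lowest labelled share of the members in each library up to 2 h. It was 9.12, 12.7 and 8.41% in the 0, 20 and 40 min libraries, 15.0 and 8.10% after 1 and 2 h, and 6.01 and 0.380% after 8 and 12 h. These rest on 1 to 45 labelled reads a library, and BAD also had the lowest T content at its 3′ end, whose part in its low share was not tested. The half-life of 5.17 ± 1.94 h was 8.82 h without the 12 h library and 3.04 h without the 8 h library.

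The effectors, whose proteins form the pores, started from like shares. BAX had a labelled share of 23.1, 23.2 and 22.5% in the 0, 20 and 40 min libraries, 21.0 and 23.2% after 1 and 2 h, and 8.48 and 1.18% after 8 and 12 h. BAK1 had 22.2, 22.1 and 20.8%, then 20.7 and 19.6%, then 2.78 and 0.165% in the same libraries. Both were level through 2 h, and at 8 h the exact interval of BAX (5.18 to 12.9%) lay above that of BAK1 (1.86 to 4.00%). Their half-lives were 4.18 ± 0.73 h for BAX and 2.65 ± 0.42 h for BAK1, with overlapping 95% intervals (2.96 to 5.90 h and 1.94 to 3.61 h).

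**Figure D1:**
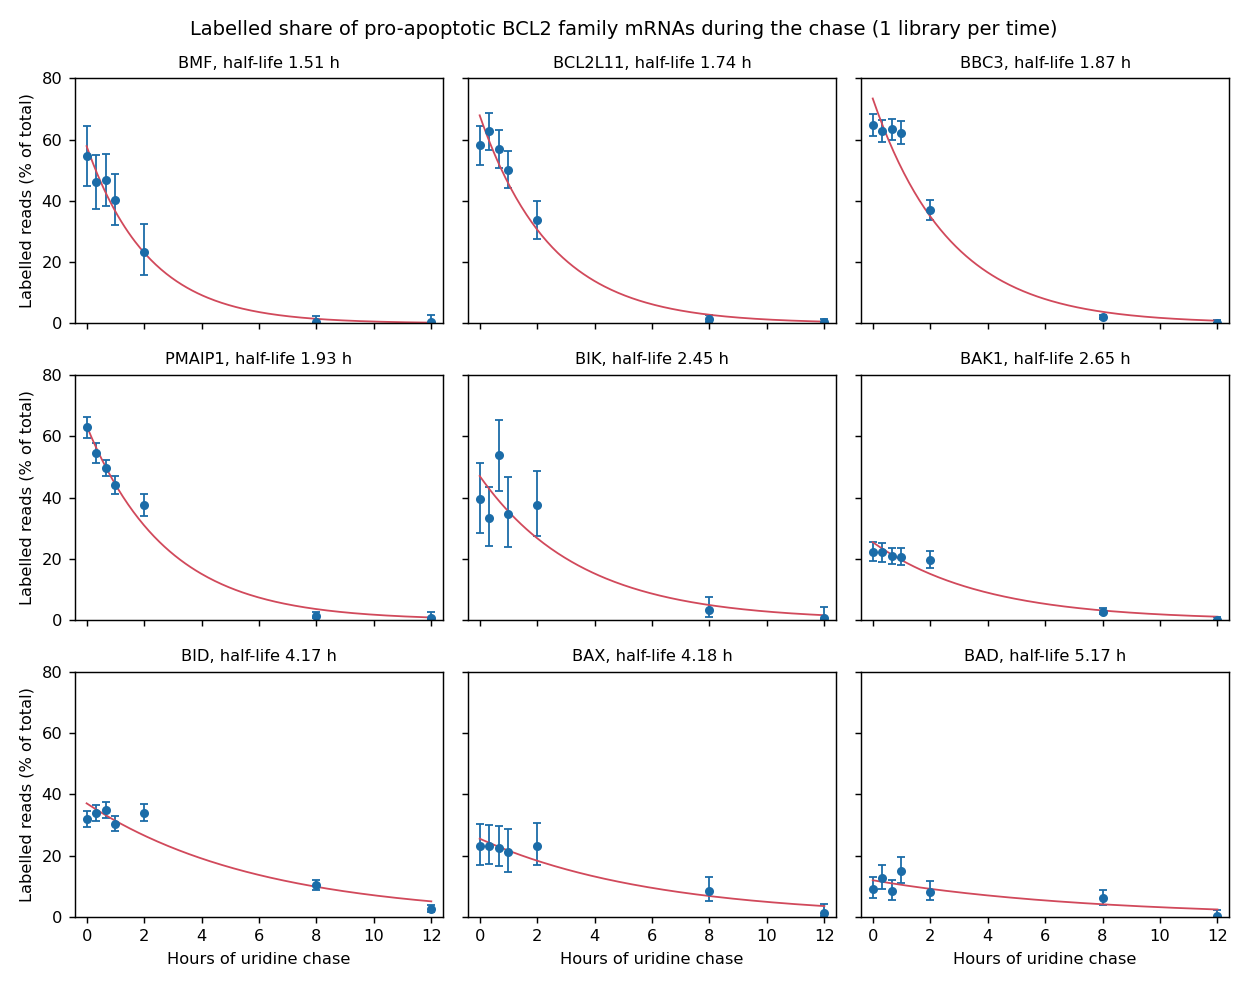
Labelled reads as a percentage of total reads (y) against hours of uridine chase (x) for each member, in order of half-life, with exact 95% binomial intervals and the fitted exponential as a line. BMF, BCL2L11, BBC3 and PMAIP1 begin at 54.7 to 64.9% and are down to 23.4 to 37.5% at 2 h, while BID and BAX stay near their 0 h share until 2 h.

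In order, the half-lives ran BMF, BCL2L11, BBC3, PMAIP1, BIK, BAK1, BID, BAX and BAD, and no neighbours in that order had separate 95% intervals. The interval of BMF (1.21 to 1.88 h) lay below those of BAK1, BID, BAX and BAD. Those of BCL2L11 and PMAIP1 lay below those of BID, BAX and BAD, and that of BBC3 below those of BID and BAX. The median of the members was 2.45 h, with 9 of 9 resolved, beside 2.72 h over 8831 resolved genes, whose middle 80% ran from 1.81 to 6.63 h. The 7 BH3-only members had a median of 1.93 h and ran from 1.51 h (BMF) to 5.17 h (BAD), beside 2.65 h for BAK1 and 4.18 h for BAX.

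With the fit restricted to the 5 libraries from 0 to 2 h, the members called were those whose share fell fastest over the whole chase. The labelled share of PMAIP1 (slope -0.38 per hour, adjusted p = 9.71e-07), BBC3 (-0.39, 2.13e-06), BCL2L11 (-0.42, 0.000305) and BMF (-0.56, 0.00154) declined in that window by the same edgeR test, which called 32.3% of 9268 genes. Half-lives fitted to those libraries alone were 1.84 h for BMF, 2.495 h for PMAIP1, 2.58 h for BCL2L11 and 2.89 h for BBC3. In PMAIP1 unlabelled reads went from 34.5 CPM at 0 h to 76.4 CPM at 40 min, beside 58.9 and 75.6 CPM of labelled reads. The other 5 members were not called, with slopes from -0.10 for BAD to 0.01 for BID and adjusted p from 0.371 (BAK1) to 0.980 (BAX). Whether the members called and not called differ in slope was not tested, and a p above the threshold does not show that the label was stable. Fitted half-lives of these 5 ran from 9.87 ± 30.0 h for BAD to the fit's limit of 1000 h for BID, so the early libraries alone set no half-life for them.

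**Figure D2:**
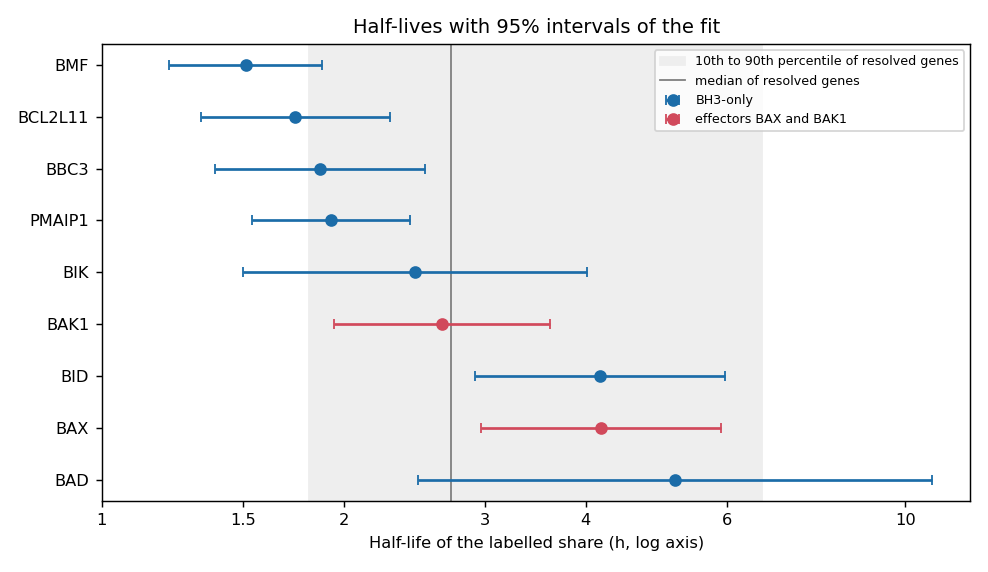
Half-life of the labelled share in hours (x, log axis) for each member (y), as points with 95% intervals of the fit, BH3-only members in blue and effectors in red. The grey band holds the middle 80% of resolved genes (1.81 to 6.63 h) and the line their median of 2.72 h. BMF and BCL2L11 lie left of the band and 7 members inside it.

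On hg19 the chosen segments start at 43525312 of chromosome 22 for BIK (plus strand), 40380091 of chromosome 15 for BMF (minus), 47724081 of chromosome 19 for BBC3 (minus), 57569986 of chromosome 18 for PMAIP1 (plus), 111921809 of chromosome 2 for BCL2L11 (plus), 18216906 of chromosome 22 for BID (minus), 64037306 of chromosome 11 for BAD (minus), 49464355 of chromosome 19 for BAX (plus) and 33540330 of chromosome 6 for BAK1 (minus). All are 3′ UTR segments of transcripts of these genes. In GENCODE 29 BCL2L11 overlaps MIR4435-2HG, BMF overlaps BMF-AS1, BAD overlaps GPR137, BAK1 overlaps GGNBP1 and BBC3 overlaps MIR3190, each on the other strand. On the same strand BBC3 overlaps MIR3191 and BID overlaps MIR3198-1. Overlap was judged on whole gene spans, not on the counted segments, and whether counting used the strand is not given. Whether reads of such partners were counted is therefore not known.

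Other 3′ ends of the same gene gave further values. The alternative 3′ end of BCL2L11 starting at 111886329 had 229 reads in all against 2127 for the chosen one, with 29.5% labelled at 0 h, 17.9% at 8 h and a half-life of 6.42 h (1.90 to 21.7 h). It had 44 reads at 0 h and 0 without 4sU, where the chosen segment had 237 and 74. Another BCL2L11 segment, with the same start as the chosen one, had 226 reads and 3.13 h (1.91 to 5.15 h). With all distinct segments summed, BCL2L11 had 2.07 h, longer than BBC3 (1.87 h) and PMAIP1 (1.82 h) and above the 10th percentile of resolved genes (1.81 h). Its total change was then 0.37 (adjusted p = 0.0344, edgeR), so its place among the fastest members depends on the chosen segment. In BID, the segment starting at 18218265 had 14.6% of its reads labelled at 0 h in place of 32.0%, yet a half-life of 4.68 h beside 4.17 h. The second PMAIP1 segment, which starts at 57570081, had 1.63 h (1.32 to 2.01 h) beside 1.93 h (1.54 to 2.42 h). Segments can overlap and share reads, so these are not independent measurements.

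Whether the total amount of each mRNA moved while the label was chased was asked next, with a trend in hours over the 7 chase libraries (edgeR with TMM scaling, 5 residual degrees of freedom). PMAIP1, BID and BAK1 fell and BMF, BIK and BCL2L11 rose, while BBC3, BAD and BAX did not pass. Among 10643 genes tested, 27.5% rose and 23.7% fell, so 6 of 9 members called is near the 51.3% called of all genes. The median change over 12 h was 0.06 on the log2 scale for the members and 0.03 for all genes. Levels are total reads in CPM after TMM scaling. Scaling by library size alone moved the median change of all genes to 0.18 and gave 3822 rising and 1797 falling genes, in place of 2932 and 2527.

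PMAIP1 moved most. Its level was 93.3, 110.1 and 152.0 CPM in the 0, 20 and 40 min libraries, 133.5 and 82.2 CPM after 1 and 2 h, and 49.2 and 31.8 CPM after 8 and 12 h. It peaked at 40 min and was lowest at 12 h, and the 12 h change was -1.94 ± 0.26 (log2, SE, adjusted p = 0.000102, edgeR). At 40 min it stood at 1.63 times its 0 h level (95% interval of counting error 1.49 to 1.78). No other member was past 1.5-fold then in either direction, where 3.6% of 11309 genes were that much higher and 2.88% lower. At 12 h it was 0.341 times its 0 h level (0.297 to 0.391), the only member past 1.5-fold lower, where 15.2% of genes were.

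BID had 149.4, 152.5 and 147.2 CPM in the 0, 20 and 40 min libraries and 148.3 and 135.1 CPM after 1 and 2 h. It was lower after 8 and 12 h, with 95.01 and 105.9 CPM (change -0.60 ± 0.11, adjusted p = 0.0008, edgeR), and joined PMAIP1 past 1.5-fold lower at 8 h, where 12.5% of genes were. Without the 12 h library the BID change was -0.96 (adjusted p = 0.00011), and over all 7 omissions it ran from -0.96 to -0.48. Changes without the 12 h library are slopes up to 8 h carried on to 12 h. BAK1 had 90.9, 83.9 and 94.4 CPM, then 99.7 and 97.5 CPM, then 81.8 and 68.4 CPM in the same libraries. Its fall (-0.37 ± 0.12, adjusted p = 0.021, edgeR) was -0.18 without the 12 h library (adjusted p = 0.420), and was not called with library size alone (0.167; 0.00562 to 0.420 over 14 alternatives). With the rank of the library in place of hours the BAK1 change was -0.21 and was not called either (adjusted p = 0.392, edgeR).

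The members that rose were highest late. BMF had 12.7, 15.3 and 15.4 CPM in the 0, 20 and 40 min libraries, 16.4 and 11.9 CPM after 1 and 2 h, and 17.9 and 23.9 CPM after 8 and 12 h (change 0.74 ± 0.18, adjusted p = 0.00589, edgeR). BCL2L11 had 28.4, 29.5 and 27.7 CPM, then 31.2 and 26.2 CPM, then 36.6 and 39.95 CPM (0.56 ± 0.13, adjusted p = 0.00377). Both were highest at 12 h, next at 8 h. BIK had 9.09, 11.7 and 8.52 CPM, then 8.22 and 9.46 CPM, then 12.2 and 14.0 CPM (0.64 ± 0.20, adjusted p = 0.021). At 12 h BMF stood at 1.89 times its 0 h level (1.49 to 2.40) and BIK at 1.54 times (1.15 to 2.08), the 2 members past 1.5-fold higher, where 18.9% of genes were. Without the 12 h library the trend of BIK was as large but not called (0.64, adjusted p = 0.149; 0.00787 to 0.906 over 14 alternatives). That of BMF was smaller and not called (0.53, adjusted p = 0.177; 0.00208 to 0.786), and that of BCL2L11 held (0.61, adjusted p = 0.0384; 0.00112 to 0.810). With the rank of the library in place of hours the changes were 0.51 for BIK, 0.69 for BMF and 0.49 for BCL2L11, and none of them was called (adjusted p = 0.181, 0.0740 and 0.0800 in that order).

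BBC3 had its highest level at 8 h and was near its 0 h level at 12 h. It had 82.1, 87.8 and 82.3 CPM in the 0, 20 and 40 min libraries, 79.1 and 91.1 CPM after 1 and 2 h, and 119.5 and 83.3 CPM after 8 and 12 h. A straight trend did not pass (0.29 ± 0.17, adjusted p = 0.185, edgeR), but without the 12 h library it did (0.90 when carried on to 12 h, adjusted p = 0.000479; 0.000479 to 0.874 over 14 alternatives), and without the 8 h library the change was 0.02. The level at 8 h was 1.46 times that at 0 h (1.33 to 1.60, counting error), or 0.54 on the log2 scale. No member was past 1.5-fold higher then, where 17.3% of genes were. Unlabelled BBC3 reads were 28.8 CPM at 0 h, 57.3 CPM at 2 h and 117.1 CPM at 8 h, beside 53.2, 33.7 and 2.36 CPM of labelled reads. BAX had 15.8 to 20.9 CPM in all chase libraries (0.06 ± 0.16, adjusted p = 0.765) and BAD 29.7 to 37.2 (-0.25 ± 0.12, adjusted p = 0.0954), both by edgeR.

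**Figure D3:**
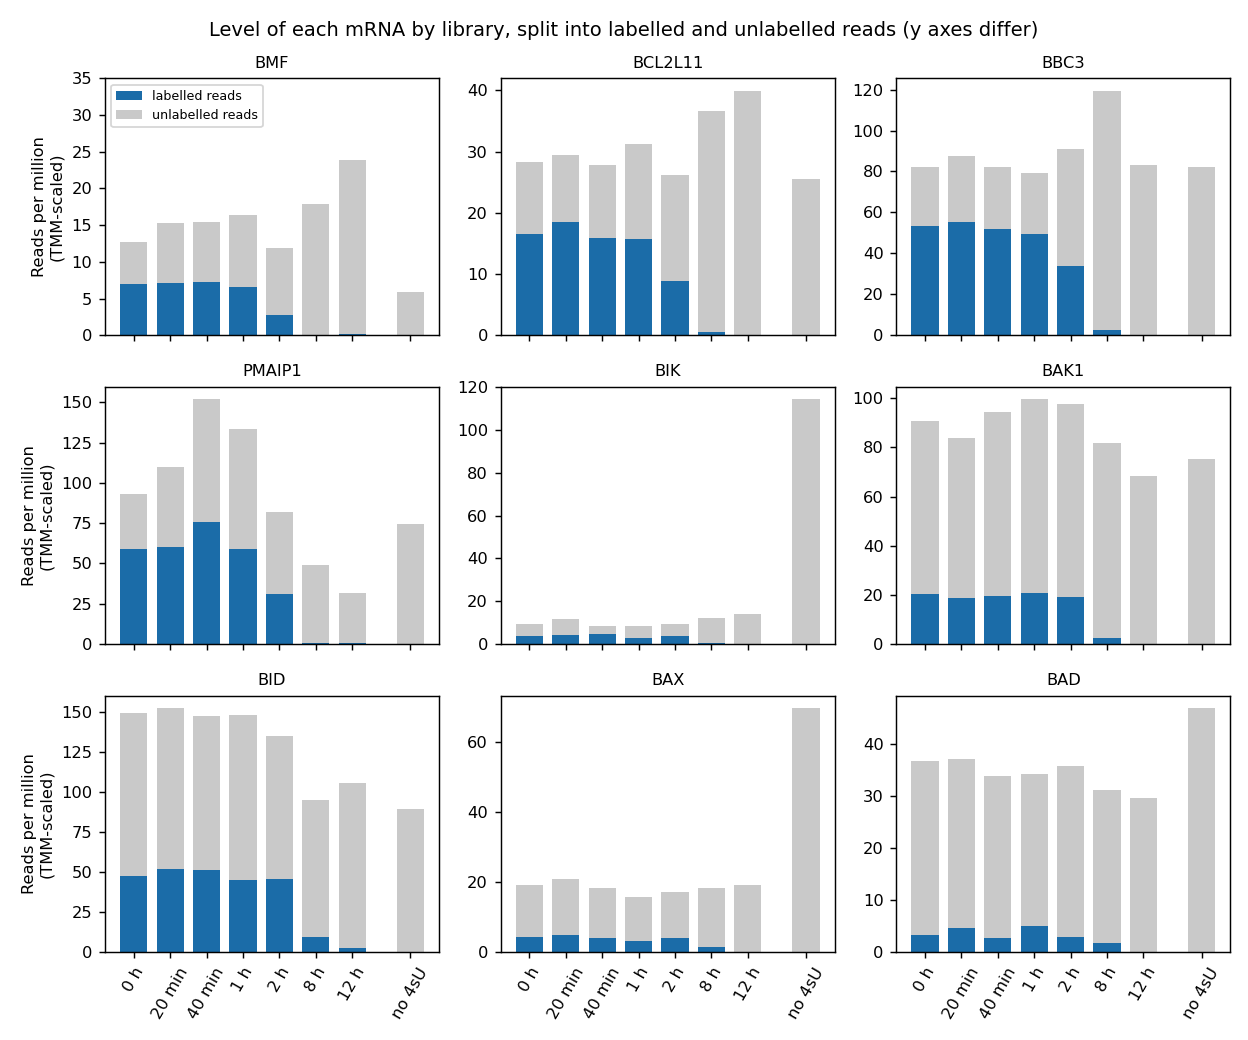
CPM after TMM scaling (y, axes differ between panels) in the 7 chase libraries in order of time and, at the right, in the library without 4sU, split into labelled (blue) and unlabelled reads (grey). PMAIP1 peaks at 40 min (152.0), BBC3 at 8 h (119.5), and BIK stands at 8.22 to 14.0 in all chase libraries against 114.5 without 4sU.

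The design also sets cells at the end of the pulse beside cells that never had 4sU, 1 library each, so the ratios below carry counting error only and no test. No member had a labelled read without 4sU. For BBC3 that is 0 of 238 reads, which allows a share of up to 1.26%, and for BMF 0 of 17, which allows up to 17.6%. BIK stood apart: it had 76 reads or 9.09 CPM at 0 h, against 332 reads or 114.5 CPM without 4sU. The 0 h level was 0.0794 times the level without 4sU (0.0611 to 0.102), or 12.6-fold lower, the 14th lowest ratio of 10849 genes. None of the 7 chase libraries was above 14.0 CPM.

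BAX was lower at 0 h too, with 160 reads or 19.1 CPM at 0 h against 202 reads or 69.7 CPM without 4sU, a ratio of 0.275 (0.222 to 0.340). The other effector, BAK1, had 90.9 CPM at 0 h and 75.2 without 4sU (ratio 1.21, 1.04 to 1.41). BMF was higher at 0 h (12.7 CPM against 5.86, ratio 2.16, 1.29 to 3.85), on 17 reads without 4sU, and was below 2-fold with all its distinct segments summed. BID had a ratio of 1.67 (1.46 to 1.91), PMAIP1 1.26 (1.08 to 1.47), BCL2L11 1.11 (0.853 to 1.46), BBC3 1.00 (0.862 to 1.16) and BAD 0.783 (0.638 to 0.966).

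So 2 members were past 2-fold lower and 1 past 2-fold higher, where 16.9% of all genes were lower and 21.6% higher by that much (38.5% in all). The monocytic and myeloid granule markers differed as well, with a summed 2477 CPM at 0 h against 790.1 without 4sU, and their part in these ratios was not tested. ELANE alone had 1262 CPM at 0 h against 375.6 without 4sU. MPO had 2.27 against 2.41 CPM, and every other marker of that list was higher at 0 h. In bulk samples fewer cells of a kind and less RNA per cell cannot be told apart. 4sU, the medium exchanges and the wash cannot be told apart either.

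**Figure D4:**
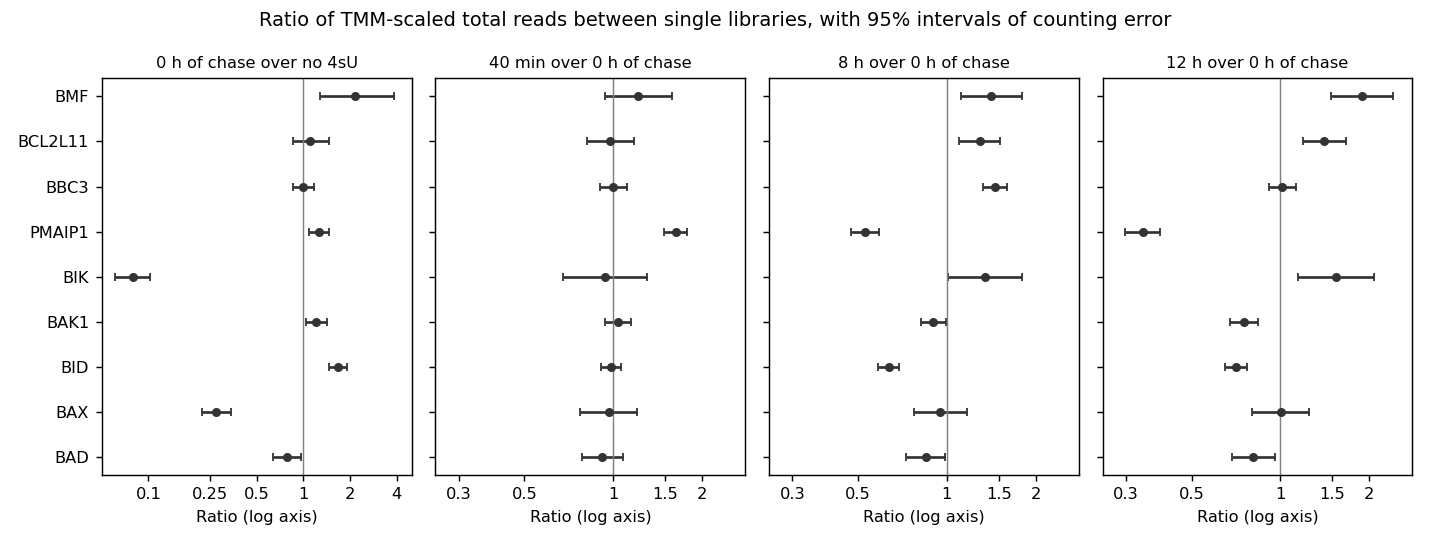
Ratio of total CPM between single libraries (x, log axis) for each member (y), with 95% intervals of counting error, for 0 h of chase over no 4sU and for 40 min, 8 h and 12 h over 0 h. BIK (0.0794) and BAX (0.275) lie far left in the first panel, and PMAIP1 lies right of 1 at 40 min (1.63) and left of it at 12 h (0.341).

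Of the genes whose proteins hold the family in check, all 5 tested lost label (95.3% of all genes tested did). Their median half-life was 1.96 h: MCL1, the target of NOXA, had 1.56 ± 0.07 h, BCL2 1.94 ± 0.37 h, BCL2L1 (BCL-XL) 1.96 ± 0.24 h, BCL2A1 2.13 ± 0.51 h and BCL2L2 2.41 ± 0.25 h. BCL2L2 overlaps the readthrough gene BCL2L2-PABPN1, so its count is uncertain. Totals of BCL2A1 (1.15 ± 0.18, adjusted p = 0.000364) and BCL2 (0.81 ± 0.23, 0.0119) rose and that of BCL2L2 fell (-0.44 ± 0.16, 0.0337) over the chase by edgeR. BCL2L10 had 6 reads in all. Of other relatives, the effector-like BOK had 65 reads in all and the BH3-only gene HRK 1, and neither was tested. BCL2L13 had a half-life of 3.01 ± 0.39 h and BCL2L12 4.42 ± 0.83 h.

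Downstream, the label declined in 13 of 13 apoptosome and caspase genes (median 2.75 h), with totals of 5 rising and 4 falling. Over all genes tested the label fell in 95.3%, so the label calls say nothing particular about this list or those below. Totals rose in 27.5% and fell in 23.7% of all genes tested, and the median half-life of resolved genes was 2.72 h. The initiator caspases CASP8 (2.09 ± 0.22 h) and CASP9 (2.14 ± 0.31 h) were fastest, and AIFM1 (7.18 ± 1.32 h) and CYCS, cytochrome c (6.003 ± 0.91 h), slowest. All 4 caspase inhibitors tested declined (median 2.33 h), from XIAP (2.14 ± 0.19 h) and BIRC6 (2.29 ± 0.25 h) to BIRC2 (2.38 ± 0.37 h) and BIRC5, survivin (4.32 ± 0.74 h). Of 5 tested for total level, 2 rose and 2 fell. Death receptors and adaptors declined in 7 of 7 (median 1.89 h), from the TRAIL receptor TNFRSF10A (1.60 ± 0.34 h) and the caspase-8 inhibitor CFLAR (1.78 ± 0.12 h) to TNFRSF1A (1.97 ± 0.35 h) and TRADD (2.83 ± 0.71 h), with totals of 3 rising and 3 falling.

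The counts that follow stand beside the same shares of all genes, with 95.3% losing label and totals rising in 27.5% and falling in 23.7%. Of 14 partners in mitochondria and cytosol 13 lost label, the exception being BCAP31, and the 13 had a median half-life of 4.44 h. Totals of 3 rose and 6 fell. The fission factor DNM1L (2.47 ± 0.17 h) and the dynein light chain DYNLL2 that holds BMF (2.49 ± 0.49 h) were fastest. The channel VDAC1 (12.5 ± 2.09 h) and the 14-3-3 protein YWHAE (11.5 ± 2.42 h) were slowest. Transcription factors known to act on BH3-only genes declined in 9 of 9 (median 1.84 h), from FOXO1 (1.39 ± 0.31 h) and DDIT3, or CHOP (1.59 ± 0.12 h), to ATF4 (2.91 ± 0.20 h) and E2F1 (4.49 ± 0.60 h), and of 11 totals that of CEBPB rose and that of TP73 fell. Ligases and kinases acting on family proteins declined in 10 of 10 (median 2.96 h). They ran from the MCL1 ligase subunit FBXW7 (1.65 ± 0.12 h) and GSK3B (2.10 ± 0.25 h) to AKT1 (9.49 ± 2.30 h), which phosphorylates BAD, and MAPK3 (10.3 ± 3.44 h). Totals of 2 of these rose and 1 fell.

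The genes nearest to each member were sought by the root mean square difference in labelled percentage over the 7 chase libraries, among 6313 genes with a mean of at least 200 reads. The nearest were MRPL55 (0.867 percentage points) and LTB (0.934) for BAK1, SFXN3 (0.972) and BARX1 (1.13) for BAX, and ANKRD52 (1.05) and TMEM173 (1.11) for BID. For the fast members they were ZNF24 (1.62) and WDR89 (1.70) for BMF, NEMF (1.52) and ZNF638 (1.55) for BCL2L11, NCOA6 (1.56) and RRN3 (1.87) for PMAIP1, and ZC3H13 (1.88) and RNPC3 (1.96) for BBC3. BAD was nearest to NME3 (1.67) and CCDC167 (1.87), and BIK to CD244 (3.27) and DDX50 (4.02), the least close of the 9.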

How the data were processed

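The authors deposited raw counts of all reads and of reads they call nascent, 64545 3′ UTR segments each. Per the submitters' processing notes, bcl2fastq 2.17.1.14, Trim Galore 0.6.5, hg19 and dm3 were used. Per the labels, libraries were QuantSeq 3′ FWD with 5% Drosophila S2 spike-in, not used here. No source used here names the aligner, the counter or the conversions a nascent read needs.

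GENCODE 29 named 84.93% of 56570 transcripts. Segments off the standard chromosomes (3056) and 85 genes with counts equal to another gene's (more than 50 reads) were left out. edgeR 4.0.16 (R 4.3.3) tested label decline (mean total at least 50, at least 20 labelled reads) and total trend (mean at least 20), called at an adjusted p under 0.05. SEs of trends come from the F statistic. Half-lives are binomial fits of an exponential on the share without 4sU, shrunk with 100 prior reads. They counted as resolved with a called decline, an excess of at least 10 reads at 0 h, an SE of the log rate of at most 0.5, and 0.25 to 24 h. Fits were tested on simulated data, those of half-lives on binomial counts about an exact exponential. The wider scatter and level early shares of some members were not simulated there, so that test cannot speak for their half-lives. DESeq2 1.42.0 served as an alternative. Intervals of percentages and ratios cover counting error only, and take reads as independent although no molecular identifiers are named. Those of half-lives are widened by the scatter about the fit where it exceeded the binomial variance. P-values measure scatter about a line in time. All 9 members are named, with the 2 shortest and 2 longest half-lives of each list, all anti-apoptotic relatives, and the 2 nearest genes per member. Members and lists were chosen with earlier results of these data known, and ratios between chase libraries and separate segments were added after values were seen.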

Additional observations from a re-analysis of the deposited data

How the results depend on the processing

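With 7 unreplicated chase libraries, the late times carry much of every trend. Over 0 to 2 h alone the labelled share fell in 2998 genes and 4 members in place of 8962 and 9, with BID at 0.014 per hour, and the median half-life of the members was 9.87 h in place of 2.45 h. Total trends then called 426 rising and 128 falling genes in place of 2932 and 2527, and 0 members by edgeR (0 at an unadjusted p under 0.05, changes over 2 h of -0.088 for BIK, -0.15 for BMF, -0.091 for BCL2L11, -0.22 for BAX and 0.18 for BAK1). With the rank of the library in place of hours, 1659 genes rose and 1154 fell. In that setting 0 members rose (2 at an unadjusted p under 0.05), 2 fell in place of 3, and BAX was at -0.058. Leaving out each library put BAX between -0.0084 and 0.134. Leaving out each chase library gave 8520 to 8990 genes and 9 members with falling label, 2545 to 2923 rising and 2151 to 2634 falling genes, 2 to 3 rising and 2 to 3 falling members, and a median half-life of 2.25 to 2.86 h. Library size without TMM moved the median total change to 0.18 (log2) and gave 3822 rising and 1797 falling genes. With all segments summed, 0 members were past 2-fold higher at 0 h. A minimum mean of 200 reads for the label test left BIK, BMF and BAX out, and with 72 to 150 reads of BIK in a chase library small differences were not detectable. The cause of these changes was not tested beyond the fewer libraries fitted. Of 117 member half-lives under alternatives, 109 stayed within the 95% interval, but most settings refit nearly the same reads. The 8 that moved were PMAIP1 with labelled reads scaled to library size and, over 0 to 2 h alone, all members but BMF and BAD. No paired analysis was possible because each condition has 1 library.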
